A study of Mus musculus with 3 samples.

Results

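ALSCs are mouse stem cells grown out of epiblasts, the tissue that forms the embryo proper, in a serum-free N2B27 medium with Activin A (Act A) and leukemia inhibitory factor (LIF). The embryos were taken at E6.5 from ICR females mated with males that carry the GOF/GFP reporter of *Oct4*, and the cells were kept on fibronectin. Gene expression was measured by RNA-seq of polyA RNA in 3 ALSC libraries, numbered 1 to 3. All 3 belong to this 1 condition, and no culture with another medium or genotype was analysed here. The labels do not say whether the libraries came from separate lines or cultures. The paper describes its RNA-seq as done on 3 biological replicates, without saying what these were. P-values therefore measure only the spread between these libraries, which may be technical. The genes described here are the cyclins, the kinase, the inhibitors, and the pocket protein that act at the G1/S transition. They were taken by name, with no threshold on a measured value, and are 10 of the 55421 named genes in the authors' table. They comprise *Ccnd1*, *Ccnd2*, *Ccnd3*, *Ccne1*, *Ccne2*, *Cdk2*, *Cdkn1a*, *Cdkn1b*, *Cdkn2a*, and *Rb1*.

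In most dividing cells, mitogens raise the D-type cyclins, which bind CDK4 or CDK6 and start the phosphorylation of the retinoblastoma protein (RB) in G1. Phosphorylated RB releases E2F transcription factors, which switch on the E-type cyclins, and cyclin E with CDK2 then completes the phosphorylation and opens S phase. The INK4 inhibitors bind CDK4 and CDK6, whereas the CIP/KIP inhibitors act on the cyclin-CDK2 complexes. Mouse embryonic stem cells are known for a short G1 phase and for high cyclin E and CDK2 activity in much of the cell cycle, whereas the D-type cyclins are known to rise as cells leave the naive state.

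The total count on named genes was between 18037342 and 18724038 per library, and 11125 genes, called expressed here, reached 1 FPKM in each library. FPKM is the count of a gene per kilobase of its length and per 1000000 counts of the library. Here, the length is that of the authors' table, in which all annotated exons of a gene are merged. The cells carried markers of pluripotent cells, since *Pou5f1* (*Oct4*), *Nanog*, and *Sox2* together summed to between 904 and 983 FPKM. The paper reports these genes in epiblast stem cells too, so they do not tell ALSCs from those. Of the markers of other cell types, *Sox1* stood highest. The 5 fibroblast markers summed to at most 0.313 FPKM, with *Col3a1*, *Dcn*, *Lum*, and *Postn* at 3 counts or fewer in every library. The 3 trophoblast markers summed to at most 1.53 FPKM, almost all of it from *Eomes*, with *Cdx2* and *Elf5* at 1 count or none. The 4 endoderm markers summed to at most 2.92 FPKM, most of it from *Foxa2*, and the 2 neural markers to at most 8.58 FPKM. Nearly all of the latter was *Sox1*, at 8.18 ± 0.393 FPKM (SD, n = 3), above 49.9% of the expressed genes and above the members *Ccnd2* and *Rb1*, whereas *Pax6* was at 10 counts or fewer. The part of these markers in the levels of the members was not tested. Replicate 1 stood apart from the other libraries. The spread between replicates beyond sampling noise was taken as edgeR's biological coefficient of variation, over the genes that passed its filter on low counts. This spread was 0.149 with replicate 1 and 0.0524 without it, and was not computed without replicate 2 or 3. RNA of a whole culture pools cells in every phase of the cycle, so fewer cells in a phase and less RNA per cell cannot be told apart.

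Of the 10 G1/S genes, 9 reached 1 FPKM in each library. The exception was *Cdkn2a*, which encodes the inhibitor p16INK4A and the p53 activator p19ARF. *Ccne1*, encoding cyclin E1, was the most abundant at 56.7 ± 4.35 FPKM (SD, n = 3), higher than 90.4% of the 11125 expressed genes. *Ccnd1* followed at 22.8 ± 3.15 FPKM (SD, n = 3). The ranges of these 2 genes over the libraries overlapped neither with each other nor with the next gene. *Cdk2*, *Cdkn1a*, *Cdkn1b*, and *Ccnd3* formed a group with means between 15.4 and 17.6 FPKM, and each overlapped in range with its neighbor in that order. Below them, *Ccne2*, *Ccnd2*, *Rb1*, and *Cdkn2a* were set apart by ranges without overlap. With 3 libraries, a two-sided exact sign-flip test of a difference between 2 genes could not go below p = 0.25, so levels were compared by their ranges.

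**Figure D1:**
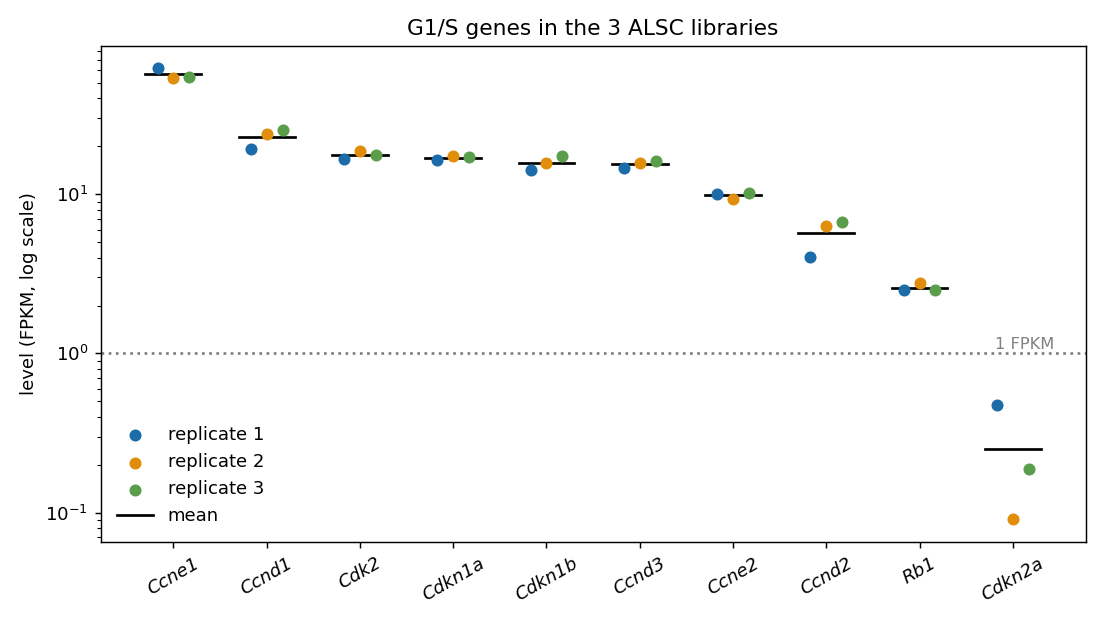
The level of each G1/S gene in FPKM on a log scale, with 1 point per ALSC library and a bar at the mean of the 3 libraries. *Ccne1* lies highest at 54.1 to 61.7 FPKM, and *Cdkn2a* is the gene below the dotted line at 1 FPKM.

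The order depended on the gene length that was used. The authors' table merges the exons of all transcripts, which matched the GENCODE M21 annotation of GRCm38 for all 10 genes. For *Ccnd3* this came to 8775 bases, while its longest coding transcript has 2113 bases, a ratio of 4.15 that exceeds that of 98.8% of 10009 expressed coding genes. For *Cdk2* the lengths were 6219 and 2406 bases, a ratio of 2.58, which exceeds that of 92.6% of those genes. The median ratio of those genes was 1.31, and the other 8 members lay between 1.00 for *Cdkn1b* and 1.71 for *Cdkn1a*. Per kilobase of the longest coding transcript, *Ccne1* was still the highest at 75.4 ± 5.79 FPKM (SD, n = 3). *Ccnd3* moved from the sixth place to the second at 64.1 ± 3.44 FPKM (SD, n = 3), and *Cdk2* kept its place after it at 45.6 ± 2.70 FPKM (SD, n = 3). *Ccnd1* moved to the fifth place and overlapped in range with *Cdkn1a*. The 4 lowest genes kept their order. Which transcripts the cells made was not measured by these gene counts.

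The promoters of *Ccne1*, *Cdk2*, and *Cdkn2a* are shown because they belong to the highest member, to its kinase partner, and to the lowest member. They were read from the RefSeq table of GRCm38.p6, which gives 250 bases before a start site and 50 after it, and held 9 windows for 6 of the 10 genes. *Ccnd1*, *Ccnd2*, *Ccne2*, and *Rb1* had no window there. The windows of *Cdkn1a*, *Cdkn1b*, and *Ccnd3* and the downstream one of *Cdkn2a* were searched but are not printed. E2F motifs were searched on both strands as TTTCGCGC, TTTGGCGC, or TTTCCCGC, which were chosen with the levels of these genes known, and are printed in capitals. *Ccne1* lies at chr7:38107441-38107740, *Cdk2* at chr10:128705002-128705301, and the upstream start of *Cdkn2a*, from which p19ARF is made, at chr4:89294570-89294869, all on the minus strand and written 5′ to 3′.
Ccne1: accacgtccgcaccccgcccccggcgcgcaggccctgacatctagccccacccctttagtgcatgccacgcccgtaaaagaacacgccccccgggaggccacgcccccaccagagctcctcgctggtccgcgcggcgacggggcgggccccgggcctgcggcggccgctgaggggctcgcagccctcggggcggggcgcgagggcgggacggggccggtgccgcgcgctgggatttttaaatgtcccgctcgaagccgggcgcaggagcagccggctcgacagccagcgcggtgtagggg
Cdk2: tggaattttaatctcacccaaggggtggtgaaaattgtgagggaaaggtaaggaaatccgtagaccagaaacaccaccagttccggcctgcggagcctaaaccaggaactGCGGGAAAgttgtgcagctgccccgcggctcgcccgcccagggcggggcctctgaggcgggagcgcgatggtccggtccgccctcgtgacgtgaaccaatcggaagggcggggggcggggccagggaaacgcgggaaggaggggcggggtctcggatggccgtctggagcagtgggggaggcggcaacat
Cdkn2a: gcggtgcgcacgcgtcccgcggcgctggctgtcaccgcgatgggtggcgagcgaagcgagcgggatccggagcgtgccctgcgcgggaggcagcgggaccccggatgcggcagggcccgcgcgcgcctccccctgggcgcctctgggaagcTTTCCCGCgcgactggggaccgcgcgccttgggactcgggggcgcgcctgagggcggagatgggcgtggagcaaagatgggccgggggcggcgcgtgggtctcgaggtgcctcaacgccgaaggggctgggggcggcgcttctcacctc

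An E2F motif was found in 2 of the 9 windows, and in 1.84% of the 32851 promoters of the table. *Cdk2* held it at position -140 from the start site, on the other strand, and the upstream window of *Cdkn2a* at position -99. None of the 3 motifs stood in the *Ccne1* window, which says only that these letters are not there. A GC box (GGGCGG, either strand), the sequence bound by SP1, was in 8 of the 9 windows and in 35.7% of all promoters. The window without it was the upstream one of *Cdkn1a*. *Ccne1* had 41 CpG dinucleotides in its window and the upstream window of *Cdkn2a* had 45, against a median of 7 over all promoters, although these genes lie at the opposite ends of expression. The motifs are descriptions of sequence, and no binding was measured.

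Among the D-type cyclins, *Ccnd1* and *Ccnd3* carried most of the level and *Ccnd2* the least. *Ccnd1* (ENSMUSG00000070348; GRCm38 chromosome 7, 144929931 to 144939925) encodes cyclin D1 and had 1644, 2103, and 2153 counts in replicates 1, 2, and 3, or 19.3, 23.9, and 25.3 FPKM. *Ccnd2* (ENSMUSG00000000184; chromosome 6, 127125162 to 127152193) encodes cyclin D2 and had 683, 1114, and 1138 counts, or 4.01, 6.32, and 6.71 FPKM. *Ccnd3* (ENSMUSG00000034165; chromosome 17, 47505051 to 47599691) encodes cyclin D3 and had 2305, 2573, and 2554 counts, or 14.5, 15.7, and 16.1 FPKM. Replicate 1 was the lowest library for all 3 genes, by a wide margin for *Ccnd2* and a narrow one for *Ccnd3*. *Ccnd1* was above *Ccnd2* in every library, by 2.03 ± 0.20 on the log2 scale of FPKM (SD, n = 3), or 4.09-fold. *Ccnd2* was below *Ccnd3* by a log2 ratio of -1.48 ± 0.33 (SD, n = 3). The log2 ratio of *Ccnd1* to *Ccnd3* was 0.56 ± 0.13 (SD, n = 3) with the table's length and -1.17 ± 0.13 (SD, n = 3) with that of the longest coding transcript, so the order of these 2 cyclins turned over with the length. *Ccnd1* made up 51.9% ± 0.805 (SD, n = 3) of the summed D-type level and *Ccnd3* 35.3% ± 2.65 (SD, n = 3), whereas with the transcript length the shares were 28.3% ± 1.30 and 63.5% ± 2.73 (SD, n = 3). *Ccnd2* had the smallest share with either length, at 12.8% ± 1.88 and 8.25% ± 1.44 (SD, n = 3).

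Both *Ccnd1* and *Ccnd3* overlap a coding gene on the other strand. The library kit named in the labels does not mark strand, so reads in such an overlap cannot be assigned to a gene. Of the 50-base words in the longest coding transcript, 72.8% for *Ccnd1* and 78.3% for *Ccnd3* occurred in no other annotated gene. The partner of *Ccnd1* is the gene named *LTO1* in the table, which had 307, 308, and 320 counts. The partner of *Ccnd3* is *Bysl*, with 1449, 1547, and 1495 counts. Reads lost or gained in these overlaps could change the levels of both cyclins.

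**Figure D2:**
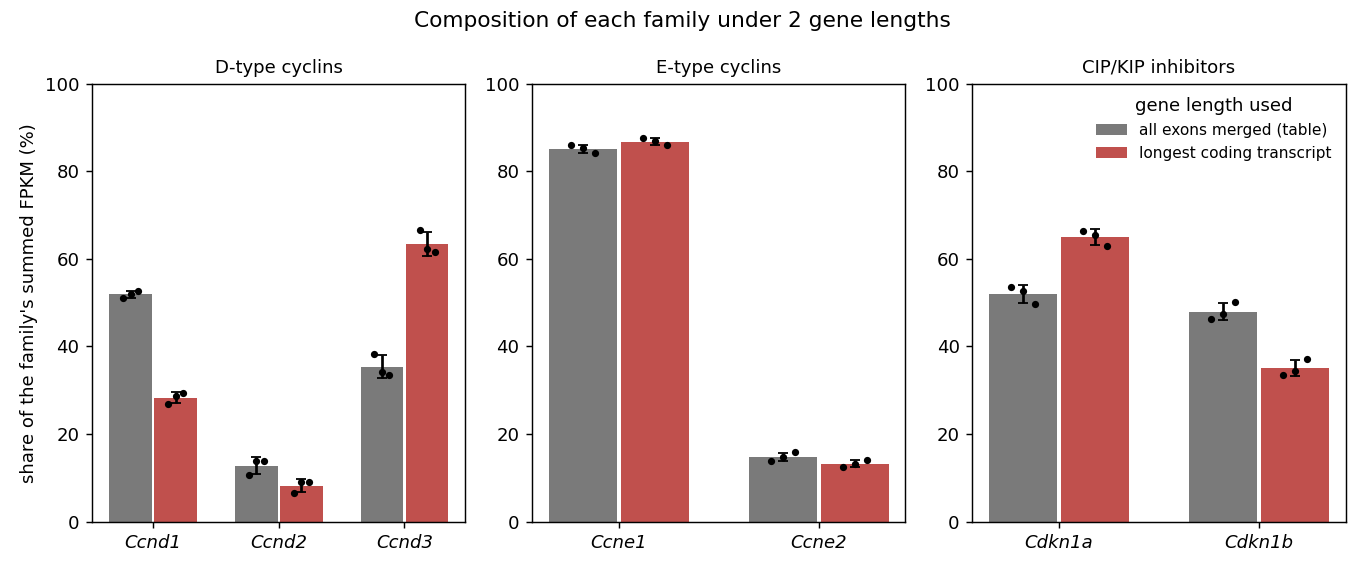
The share of each gene in the summed FPKM of the members of its family (*Cdkn1c* is not included), in percent, with bars at the mean of 3 libraries, error bars of 1 SD, and points for single libraries. Gray bars use the merged exons of the authors' table and red bars the longest coding transcript. *Ccne1* holds 85.1% and 86.8% of the E-type level, while the leading D-type cyclin is *Ccnd1* with gray bars and *Ccnd3* with red bars.

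The E-type cyclins were carried by *Ccne1*. *Ccne1* (ENSMUSG00000002068; chromosome 7, 38097984 to 38107534) had 2971, 2697, and 2603 counts in replicates 1, 2, and 3, or 61.7, 54.1, and 54.2 FPKM. *Ccne2* (ENSMUSG00000028212; chromosome 4, 11191351 to 11204779) encodes cyclin E2, a partner of the same kinase, and had 633, 615, and 641 counts, or 10.01, 9.40, and 10.2 FPKM. Their log2 ratio was 2.52 ± 0.10 (SD, n = 3), which is 5.74-fold, and *Ccne1* made up 85.1% ± 0.917 (SD, n = 3) of the summed level. No library came near to an overlap between the 2 genes. Of the words of *Ccne2*, 82.6% were unique, because its exons overlap those of *Ints8* on the other strand, which had 1755, 2017, and 1927 counts. All words of *Ccne1* were unique. The summed level of the E-type cyclins was 66.5 ± 4.51 FPKM (SD, n = 3), above the 44.0 ± 5.43 FPKM (SD, n = 3) of the D-type cyclins in each library. With the transcript length this order turned over in replicates 2 and 3 but not in replicate 1, with 93.8, 82.9, and 84.0 FPKM for the E-type and 90.6, 104, and 109 FPKM for the D-type cyclins in replicates 1, 2, and 3.

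*Cdk2* (ENSMUSG00000025358; chromosome 10, 128697939 to 128705031) encodes the kinase that cyclin E activates. It had 1869, 2178, and 1972 counts, or 16.6, 18.7, and 17.6 FPKM in replicates 1, 2, and 3. The libraries lay close together, with a coefficient of variation of 5.93%. *Ccne1* was above its kinase in all 3 libraries with either gene length. *Pmel*, whose exons overlap those of *Cdk2* on the other strand, had 74, 83, and 59 counts.

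The CIP/KIP inhibitors *Cdkn1a* and *Cdkn1b* were at levels that could not be separated. *Cdkn1a* (ENSMUSG00000023067; chromosome 17, 29090976 to 29100727) encodes p21, a target of p53. It had 1053, 1156, and 1106 counts, or 16.4, 17.4, and 17.3 FPKM in replicates 1, 2, and 3. Its coefficient of variation of 3.19% was the lowest among the 10 members. *Cdkn1b* (ENSMUSG00000003031; chromosome 6, 134920401 to 134925513) encodes p27, which restrains cyclin E-CDK2 in resting cells. It had 1164, 1333, and 1431 counts, or 14.1, 15.6, and 17.4 FPKM. The 2 ranges overlapped, and the log2 ratio of *Cdkn1b* to *Cdkn1a* was -0.12 ± 0.12 (SD, n = 3), with replicate 3 on the other side of 0 from replicates 1 and 2. With the length of the longest coding transcript, *Cdkn1b* was lower in every library, at a log2 ratio of -0.89 ± 0.12 (SD, n = 3). The 2 inhibitors together reached 32.7 ± 2.10 FPKM (SD, n = 3), below the E-type sum in each library. With *Cdkn1c*, the CIP/KIP gene outside the members, the sum was 111, 104, and 103 FPKM in replicates 1, 2, and 3, above the E-type sum in each library.

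*Cdkn2a* (ENSMUSG00000044303; chromosome 4, 89274471 to 89294653) was barely detected. It had 10, 2, and 4 counts in replicates 1, 2, and 3, or 0.472, 0.0911, and 0.189 FPKM. The exact 95% Poisson intervals were 0.226 to 0.867, 0.0110 to 0.329, and 0.0516 to 0.484 FPKM, and cover counting error only, since no molecular identifiers tell copies of 1 molecule apart. The limit that a count of 0 allows, 3 counts, lay between 0.137 and 0.142 FPKM for a gene of this length, and replicate 2 was under it. The gene makes 2 proteins from separate starts, and the counts do not tell p16INK4A from p19ARF. Its neighbor *Cdkn2b*, which encodes p15INK4B, had 14, 10, and 6 counts.

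*Rb1* (ENSMUSG00000022105; chromosome 14, 73183673 to 73325822), with 27 exons in its coding transcript, encodes RB, the main target of the G1 kinases. It had 274, 310, and 270 counts, or 2.52, 2.75, and 2.49 FPKM in replicates 1, 2, and 3, and its mean was higher than 16.5% of the expressed genes. Of the 2 related pocket proteins, *Rbl1* (p107) was at 6.39 ± 0.605 FPKM and *Rbl2* (p130) at 0.360 ± 0.0776 FPKM (SD, n = 3). The ranges of the 3 pocket protein genes did not overlap. *Lpar6* and *Rcbtb2* overlap exons of *Rb1* on the other strand, and 98.7% of the words of *Rb1* were unique.

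To see which members differed between the libraries, the counts of each gene were compared by a chi-square test, with library sizes scaled by edgeR's TMM factors and Benjamini-Hochberg adjustment over all 16944 genes with at least 10 counts in total. The test compares these libraries and sets their spread against counting error alone. *Ccnd1* (adjusted p = 5.25e-11), *Ccnd2* (adjusted p = 2.63e-22), *Ccne1* (adjusted p = 4.03e-13), and *Cdkn1b* (adjusted p = 0.00014) varied. *Ccnd3*, *Ccne2*, *Cdk2*, *Cdkn1a*, *Cdkn2a*, and *Rb1* did not pass, with adjusted p between 0.054 and 0.971. With total counts as library sizes in place of TMM, *Ccnd3* (adjusted p = 0.00254) and *Cdk2* (adjusted p = 0.00249) passed too, while the share of all genes was 47.5%. These 4 of 10 members compare with 47.2% of all genes tested, so the members' share was near the background. Among the genes with at least 1000 counts, 72.3% varied, against 4 of the 8 members with so many counts, and that difference was not tested.

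In TMM-scaled counts per 1000000 (CPM), *Ccnd2* was at 39.0, 58.1, and 62.6 in replicates 1, 2, and 3, so replicate 1 fell by 35.4% from the mean of the others. *Ccnd1* was at 93.8, 110, and 118 CPM, with replicate 1 again the lowest. *Ccne1* went the other way, at 170, 141, and 143 CPM. *Cdkn1b* was at 66.4, 69.5, and 78.7 CPM, and here replicate 3 was farthest from the others. Without replicate 1, 1302 of 16062 genes varied (8.11%), and of the members *Cdkn1b* did (adjusted p = 0.0206), while *Ccnd1*, *Ccnd2*, and *Ccne1* did not (adjusted p = 0.108, 0.308, and 0.791). The call of *Cdkn1b* was lost without replicate 3 (adjusted p = 0.376), and *Cdkn2a* passed without it (adjusted p = 0.0311), from 10 against 2 counts.

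**Figure D3:**
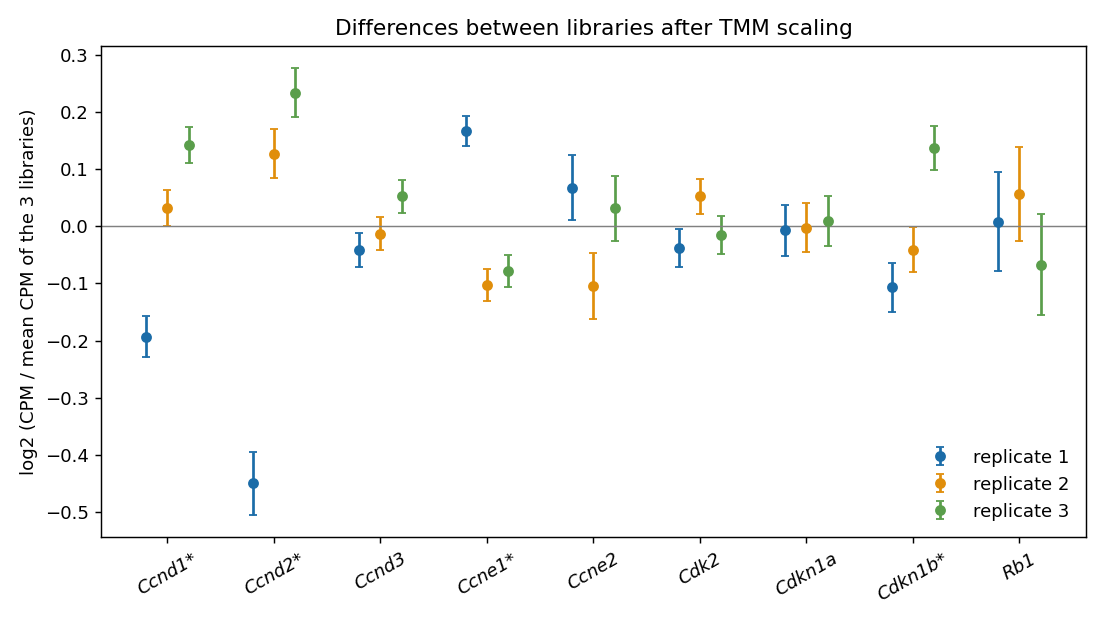
The log2 ratio of each library's TMM-scaled CPM to the mean of the 3 libraries for 9 members, with error bars of 1 SE of counting error. *Cdkn2a* is left out for its low counts, and asterisks mark the 4 genes whose counts varied. Replicate 1 lies lowest for *Ccnd1* and *Ccnd2* and highest for *Ccne1*.

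Over all genes, the difference between replicate 1 and the other libraries followed gene length. For this, 10577 genes whose mean count was 100 or higher were sorted into 20 classes by length, and the median log2 ratio of replicate 1 to the mean of the others went from 0.39 in the shortest class to -0.53 in the longest. *Ccne1*, of 2662 bases, had a ratio of 0.26, in a class with a median of 0.17 and quartiles of 0.05 and 0.30. *Cdkn1b*, of 4552 bases, had a ratio of -0.16, in a class with a median of -0.05 and quartiles of -0.20 and 0.14. *Ccnd1*, of 4709 bases, was in the same class as *Cdkn1b* and lay below both at -0.28. *Ccnd2*, of 9409 bases, lay at -0.63, below the quartiles of its class, -0.52 and -0.08. By the lengths of the authors' table, the members that did not vary had ratios between -0.06 and 0.10, *Cdkn2a* apart, each between the quartiles of its class. Of these, *Ccnd3*, of 8775 bases, was at -0.06, just inside the upper quartile of a class with a median of -0.26. *Rb1*, of 6015 bases, was at 0.01, in a class with a median of -0.13. The table's length is 4.15 times that of the longest coding transcript for *Ccnd3* and 2.58 times for *Cdk2*. Their places within a class depend on it, and classes by transcript length were not made. The part of gene length in the differences of single members was not tested.

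**Figure D4:**
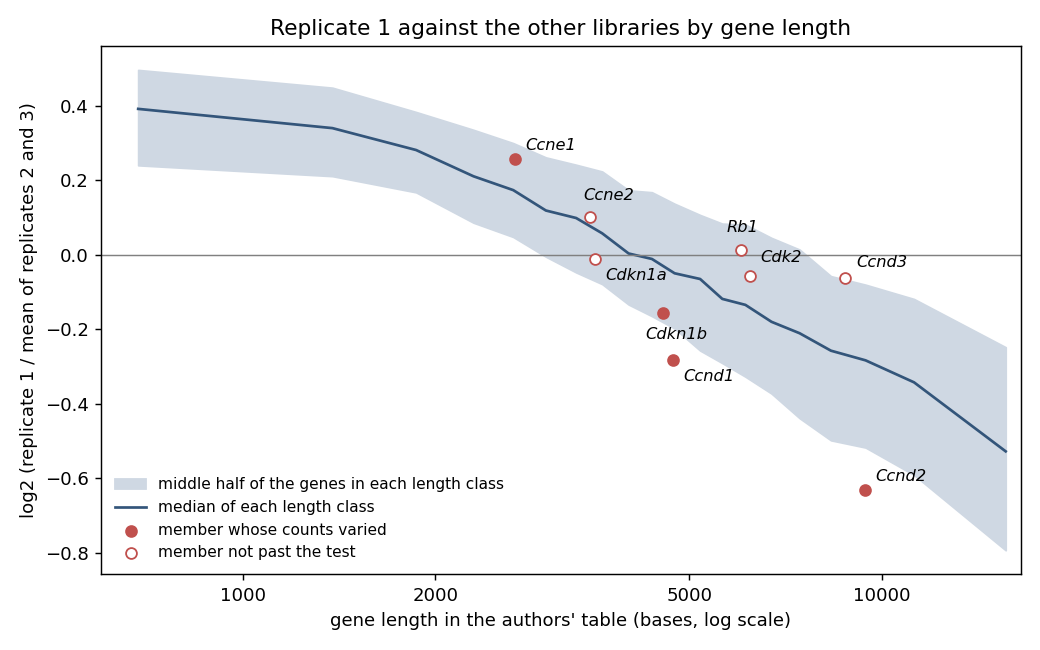
The log2 ratio of replicate 1 to the mean of replicates 2 and 3 against the gene length of the authors' table, in bases on a log scale. The line is the median and the band spans the quartiles of the genes in each of 20 length classes, and the points are 9 members, filled where the counts varied. The line falls from 0.39 to -0.53, and *Ccnd1* and *Ccnd2* lie below the band.

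The other genes of the pathway were taken from 8 lists by function, chosen with earlier results of these libraries known. Of their 48 genes, 43 reached 1 FPKM in each library, beside 9 of the 10 members. Of the 47 genes tested, 27 varied between the libraries (chi-square test, against 47.2% of all genes). Among all genes with at least 1000 counts, as most of the 47 had, 72.3% varied. Replicate 1 was the highest in 15 of the 27, the lowest in 11, and between the others in 1. Over all genes, 3760 of the 8003 that varied had replicate 1 highest (22.2% of those tested) and 3751 had it lowest (22.1%). Without replicate 1, 8 pathway genes varied, against 8.11% of all genes. The median log2 ratio of replicate 1 to the others was -0.01 over these genes, -0.03 over the members, and 0.00 over the 10577 genes of the length classes.

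The G1 kinases differed widely from each other. *Cdk4*, a partner of the D-type cyclins, was at 223 ± 17.01 FPKM (SD, n = 3), the highest of its list of 6, while *Cdk6*, the other partner, was the lowest at 5.08 ± 0.516 FPKM (SD, n = 3). *Cdk4* was therefore above each member. Of this list, 5 of 6 genes varied, 3 with replicate 1 highest and 2 with it lowest. Of all genes tested 47.2% varied, and of those with at least 1000 counts 72.3%. Among the cyclins and the kinase of S, G2, and M phase, *Ccnb1* was highest at 121 ± 4.05 FPKM and *Ccna1*, known from the germ line, lowest at 1.36 ± 0.189 FPKM (SD, n = 3). In that list 2 of 5 genes varied, against the same shares of all genes, both with replicate 1 highest.

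Of the CDK inhibitors outside the members, *Cdkn1c*, the imprinted CIP/KIP gene for p57, was highest at 73.5 ± 6.44 FPKM (SD, n = 3). It was above *Cdkn1a* and *Cdkn1b* in every library. *Cdkn2d*, which encodes p19INK4D, was at 16.2 ± 1.59 FPKM (SD, n = 3). *Cdkn2b* and *Cdkn2c* stayed under 1 FPKM in every library, with *Cdkn2c* lowest at 6, 8, and 6 counts, so of the 4 INK4 genes only *Cdkn2d* passed that level. Of this list, *Cdkn1c* and *Cdkn2d* varied (2 of 4 genes, against 47.2% of all genes tested), both with replicate 1 highest.

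Among the pocket proteins, E2F factors, and their DP partners, *Tfdp1* was highest at 72.9 ± 1.87 FPKM (SD, n = 3) and *Rbl2* lowest. In this list 6 of 12 genes varied, against 47.2% of all genes tested. Among all genes with at least 1000 counts, as most of the 12 had, 72.3% varied. Replicate 1 was lowest in each of the 6, and over all genes it was lowest in 3751 of the 8003 that varied. Of 7 S phase genes under E2F control, *Pcna*, the clamp of DNA polymerase, was highest at 221 ± 9.03 FPKM and *Tyms*, thymidylate synthase, lowest at 17.9 ± 0.568 FPKM (SD, n = 3), and all 7 were at 1 FPKM or more. In this list 4 of 7 varied, against 47.2% of all genes tested. Among all genes with at least 1000 counts, as each of the 7 had, 72.3% varied. Replicate 1 was highest in each of the 4, and over all genes it was highest in 3760 of the 8003 that varied. Whether these lists differ from other genes in direction was not tested. The proliferation markers *Top2a*, at 158 ± 23.5 FPKM, and *Mki67*, at 35.7 ± 7.99 FPKM (SD, n = 3), both varied with replicate 1 lowest. Of all genes with at least 1000 counts, as these 2 had, 72.3% varied. Both are long genes, of 10061 bases for *Mki67* and 9013 for *Top2a*, in the length class of *Ccnd2*.

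Of the SCF ubiquitin ligase and other genes of cyclin turnover, *Cks1b*, a cofactor for the destruction of p27, was highest at 211 ± 33.9 FPKM (SD, n = 3). *Skp2*, the substrate receptor for p27, had a count of 0 in all 3 libraries. By counting error alone this allows 3 counts, or at most 0.0211 FPKM. A loss of its reads in the counting was not tested. In that list 5 of the 7 genes tested varied, against 47.2% of all genes and 72.3% of those with at least 1000 counts. Replicate 1 was highest in 3, lowest in 1, and between the others in 1. Among the upstream regulators, *Trp53* (p53) was highest at 60.0 ± 2.35 FPKM and *Myc* lowest at 6.23 ± 0.515 FPKM (SD, n = 3). *Trp53* was the 1 gene of 4 that varied, with replicate 1 highest. Of all genes tested 47.2% varied, and of those with at least 1000 counts 72.3%.

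**Figure D5:**
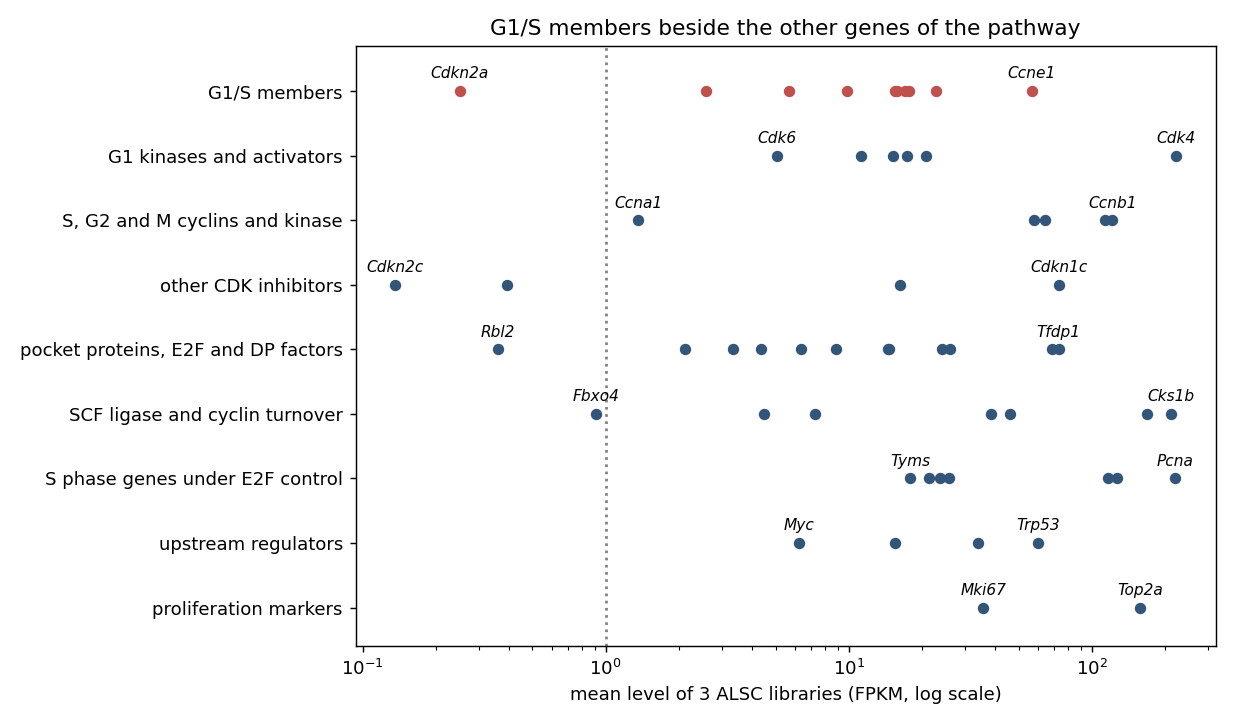
Mean level in FPKM on a log scale of the 10 members, in red, and of the other genes of the pathway by list, in blue, with the lowest and highest gene of each row named. *Skp2*, at 0, cannot be drawn on this axis. *Cdk4*, *Pcna*, and *Cks1b* lie highest, at 211 to 223 FPKM, and *Ccne1* is the highest member at 56.7 FPKM.

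The genes most like *Ccne1* in level, by the root mean square difference of log2(FPKM + 1) over the 3 libraries, were *Marcks* (0.0176), *Ndufv1* (0.0187), and *Tmbim6* (0.0226). Their means of 56.3, 56.3, and 56.9 FPKM lay within 1 SD of that of *Ccne1*. This likeness rests on 3 libraries of 1 condition.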

How the data were processed

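According to the labels, RNA was taken up in TRIzol and polyA libraries were made with an Illumina TruSeq kit, while the methods of the paper name an RNeasy kit. Paired-end reads were mapped to GRCm38, and the submitters' processing notes name HISAT2 2.0.5. The counting program and its strand setting are not given in the sources used here. The authors deposited raw counts per gene without normalization. A further 3 columns of counts match no sample of this series and were not used, and 317 rows without a gene name, at 0.165% to 0.182% of the counts, were left out.

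From the counts, FPKM was computed with the total count on named genes. Variation was tested with a chi-square test on counts scaled by edgeR's TMM factors. It was checked on counts simulated with counting error alone, so the check does not cover the further spread between these libraries. No test between groups was possible, so neither edgeR nor DESeq2 was used as a test. A value at or under 3 counts was taken as not detected. R 4.3.3, edgeR 4.0.16, DESeq2 1.42.0 (size factors), Python 3.11.15, SciPy 1.17.1, and pandas 2.3.3 were used. Transcript lengths, exon overlaps, and unique words came from GENCODE M21, promoters from RefSeq.

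The members and lists were chosen with earlier results of these data known. The text names all members, the highest and lowest gene of each pathway list with genes a result turns on (*Rbl1*, *Cdkn2b*, *Cdkn2d*, *Skp1a*), the markers, and the 3 genes closest to the highest member. Alternatives covered library size, gene length, thresholds, the filter on counts, and each replicate left out. The transcript length for family shares was added with the data in view.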

Additional observations from a re-analysis of the deposited data

How the results depend on the processing

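No paired analysis was possible because there is 1 condition with 3 libraries. The levels of all 10 members moved by less than 1 SD with TMM or DESeq2 library sizes and without mitochondrial genes in the total. The length of the longest coding transcript moved 8 of them by more. It also moved the log2 ratio of *Ccnd1* to *Ccnd2* to 1.79, of *Ccnd2* to *Ccnd3* to -2.96, of *Ccne1* to *Ccne2* to 2.72, and of *Cdkn1b* to *Cdkn1a* to -0.89, and turned that of *Ccnd1* to *Ccnd3* from 0.56 to -1.17. This change follows from the lengths alone. With 1 replicate left out, between 1 and 4 members and between 8 and 28 pathway genes varied. The low ends are without replicate 1, where 8.11% of all genes varied. The shares of all genes without replicate 2 or 3 are not given here. With total counts in place of TMM, 6 members and 33 pathway genes varied, against 47.5% of all genes, with *Ccnd3* (adjusted p = 0.00254, chi-square test) and *Cdk2* (adjusted p = 0.00249) in addition. The number of members at 1 FPKM or more was 9 in every alternative tried. Depth limited *Cdkn2a* most.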

Other observations

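*Skp2* (ENSMUSG00000054115; GRCm38 chromosome 15, 9111985 to 9155425) had no count in any library, although genes that act with its protein were abundant, such as *Cks1b* and *Skp1a*, the latter at 169 ± 23.5 FPKM (SD, n = 3). Its coding neighbors were looked at after this value had been seen. *Nadk2*, on one side, had 1 count in each library, and *Ranbp3l*, beyond it, had none. *Lmbrd2*, on the other side, overlaps *Skp2* on the opposite strand and had 51, 40, and 48 counts. *Slc1a3*, farther away, had 706, 832, and 770 counts. Neither a cause in the cells nor one in the counting was tested.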
